A study of Gallus gallus with 4 samples.

Results

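Cytolytic cells and CD8 CD226 T cells were compared within the blood of laying hens, and both were chosen by the measured values of 10 genes. A cell was taken as cytolytic when its values were at least 3 for ZEB2, at least 1 for FASLG and at least 1 for CD247, with MMR1L4 at 0 and PAX5 and EBF1 together below 3. A CD8 CD226 T cell had at least 3 for CD226, at least 1 for CD8A and CD8BP together and at least 1 for CD247, with CD4 and FASLG at 0, ZEB2 below 3 and the same limit on PAX5 and EBF1. ZEB2 is a zinc-finger factor of terminally differentiated killer cells, FASLG the Fas ligand, CD247 the zeta signalling chain, CD226 an adhesion receptor and CD8A with CD8BP the CD8 coreceptor, whereas MMR1L4 marks monocytes and PAX5 and EBF1 mark B cells. There were 375 cytolytic cells (108, 64 and 203 in libraries 1 to 3) and 303 CD8 CD226 cells (123, 43 and 137) among 12042 cells. These 10 genes chose the cells, so they are no result here. All other genes were measured in the same cells but took no part in the choice, and their tests describe what goes along with the gates.

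Each library came from the blood of 1 clinically healthy hen of 24 weeks, so each hen gave both groups and there was 1 condition, without treatment. The labels name the strain as Bovans Robust, whereas the methods of the study name Dekalb White. Leukocytes had been separated on Ficoll, and thrombocytes had been reduced by immunomagnetic separation with an antibody to CD41/61. The barcodes of a 4th library repeated 4890 of those of library 3, whereas any pair among libraries 1 to 3 shared 1 to 9, and the repeat was left out.

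Cytotoxic lymphocytes kill by releasing granules that hold perforin, granulysin and granzymes, or by death ligands such as the Fas ligand. Natural killer cells and differentiated CD8 T cells both do so, and in mammals their shared programme is carried by T-box factors, PRDM1 and ZEB2. T cells that have not yet met antigen, or that persist as central memory cells, instead rely on TCF7, LEF1, FOXO1 and interleukin-7 and recirculate through lymphoid organs. Cells that use CD247 without surface CD3 can be natural killer cells, so CD3 and receptor chain transcripts are described separately below.

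The values of each gene were summed over the cells of a group in a library and scaled to 10000, and this value per 10000 is called the level. The deposited values had been corrected for depth, with median totals per cell of 2452.5, 2564.5 and 2585 in cytolytic cells and 2520, 2674 and 2650 in CD8 CD226 cells. The summed values per profile ran from 110277 to 506480. Mitochondrial values differed between the groups, with medians per cell of 11.9, 8.25 and 12.4% in cytolytic cells and 7.32, 4.98 and 7.63% in CD8 CD226 cells. Ribosomal protein values moved the other way, with 0.690, 1.31 and 1.02% against 2.79, 1.45 and 1.51%. The summed level of 10 B-cell markers was 1.76 to 2.90 in cytolytic and 1.86 to 3.05 in CD8 CD226 cells, that of 8 monocyte markers 0.251 to 0.454 and 0.332 to 0.544, of 4 thrombocyte markers 0.0627 to 0.138 and 0.0856 to 0.181, and of 3 globins 1.63 to 2.31 and 1.33 to 2.27. The 6 eosinophil markers summed to 5.52 to 11.3 in cytolytic and 4.12 to 4.90 in CD8 CD226 cells, with 1 of 5 tested higher (MCTP2, at 3.70 to 10.2 against 1.09 to 1.53) and 1 lower (FRY), and their part in the results was not tested. The 5 basophil markers reached 5.27 in the cytolytic cells of library 3, where 2 cells had CTSG and HDC together at 3 or more (CTSG up to 95), and 1 cytolytic cell of library 2 held an IL2RA value of 30. Without these 3 cells and 1 CD8 CD226 cell of library 3 that met the same limit (CTSG and HDC together, or IL2RA, at 3 or more), 1201 genes were past the threshold in place of 1194.

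Of 9882 genes tested outside the gates, 1194 (12.1%) were past an adjusted p of 0.05 in limma, 465 (4.71%) higher and 729 (7.38%) lower in cytolytic cells. The counts of every gene list are to be read against these shares. Some genes stand on several lists and are counted in each, such as CCR7, ITGA6, IL7R, STAT4 and CD28. The granule genes GNLY and GZMA, the factor HIC2 and the adaptor GAB3 stood far above the diagonal of equal levels, and TCF7, PDE3B, IL7R and IL20RA far below it. The median change over all tested genes was -0.15 on the log2 scale. When libraries were scaled by the median of ratios, this median became -0.02 and the split became 589 higher and 570 lower, so small decreases depend on the scaling. Log2 changes are given below as cytolytic minus CD8 CD226 cells on log2 of the level plus 0.1, ± SE, with 3 libraries per group, and they should be read against -0.15. Without library 1 or library 3, in each case with 2 libraries left per group, 701 or 483 genes were called, and 679 or 481 of them were among the 1194 with the same direction. Among cells with at most 10% mitochondrial values, 768 were called, of which 732 were shared.

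**Figure D1:**
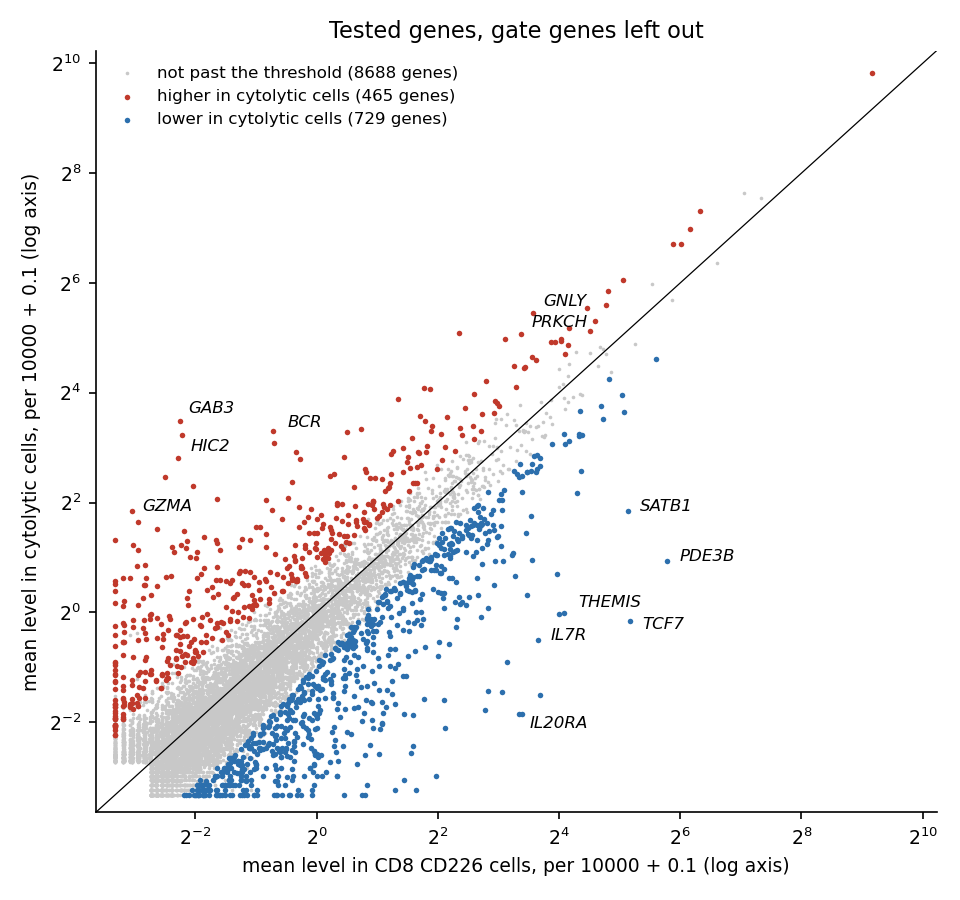
Mean level of each tested gene over 3 libraries in CD8 CD226 cells (horizontal) and cytolytic cells (vertical), per 10000 plus 0.1 on log axes, with the line of equal levels. Red points are the 465 genes higher and blue points the 729 genes lower in cytolytic cells, grey points are not past the threshold, and the gate genes are left out.

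Granule and killing genes were mostly higher in cytolytic cells where they passed the test. Of 15 tested effector and granule-release genes, 7 were higher and 1 was lower, beside 4.71% higher and 7.38% lower of all tested genes. Their median change was 0.47 beside -0.15 for all genes. GNLY, granulysin, the membrane-lytic peptide of cytotoxic granules (chromosome 22, 4551575 to 4552746 in GRCg7b), had levels of 28.5, 58.9 and 44.3 in the cytolytic cells of libraries 1 to 3 and 14.0, 10.2 and 11 in CD8 CD226 cells. Every cytolytic library lay above every CD8 CD226 library, as in 2782 (28.2%) of all tested genes in either direction, and the mean was 3.73-fold higher (log2 change 1.84 ± 0.21, limma adjusted p = 1.42e-06). GNLY was therefore shared by both groups at unequal levels. GZMA and GZMK were at or near 0 in CD8 CD226 cells, whereas GZMM was low there but present in every library.

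GZMA, a granule serine protease, had levels of 2.50, 4.45 and 3.55 in cytolytic cells and 0.0332, 0 and 0.0285 in CD8 CD226 cells, where all 3 libraries together held a summed value of 2. The ratio of the summed levels was 130.0-fold (95% counting interval 35.7 to 1078, which leaves out the spread between hens). The log2 change was 4.88 ± 0.32 (limma adjusted p = 2.65e-10). GZMK, its neighbour, had levels of 1.00, 2.45 and 1.70 against 0.0332, 0.0907 and 0 with a ratio of 62.1-fold (95% counting interval 16.9 to 518) and a change of 3.65 (limma adjusted p = 2.96e-07). The annotated spans of GZMA (chromosome Z, 17183835 to 17206571) and GZMK overlap, so reads in the shared stretch could be assigned to either. GZMM, a granzyme of natural killer and T cells in mammals, was at 3.23, 5.90 and 2.98 against 0.565, 0.453 and 0.371, 8.72-fold higher (change 2.82, limma adjusted p = 1.39e-07). All 3 granzymes present in the matrix rose, and none overlapped between the groups. All cytolytic libraries lay above in 10.0% of all tested genes.

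PRF1, perforin, which forms pores in target cells, had levels of 0.423, 1.13 and 0.395 in cytolytic cells and was at 0 in all CD8 CD226 libraries. Against the level that 3 counts over that whole group would give, it was at least 16.5-fold higher (limma adjusted p = 5.22e-05). SYTL3, which tethers granules through Rab27 in mammals, was at 8.04, 5.08 and 7.64 against 0.233, 0 and 0.0856, a change of 5.23 ± 0.35 (limma adjusted p = 2.71e-10). SYTL1, of the same family, went the other way with 0.731, 1.19 and 1.40 against 2.16, 1.81 and 2.08, and its change of -0.85 (limma adjusted p = 0.0352) had adjusted p-values of 0.333 without library 1 and 0.162 without library 3. STX11, a fusion protein of lytic granules, was higher by 1.51 (limma adjusted p = 0.0152), a call that was lost without library 1 (adjusted p = 0.294), without library 3 (0.118) and among cells with at most 10% mitochondrial values (0.428). Other parts of the release machinery did not pass the test, with changes of -0.29 for RAB27A, -0.50 for UNC13D, 0.29 for LYST and 0.47 for LAMP1. Within cells of at most 10% mitochondrial values, 6 of the 15 genes were still higher and 0 lower, and the same counts held in each of the fits without library 1 or library 3.

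**Figure D2:**
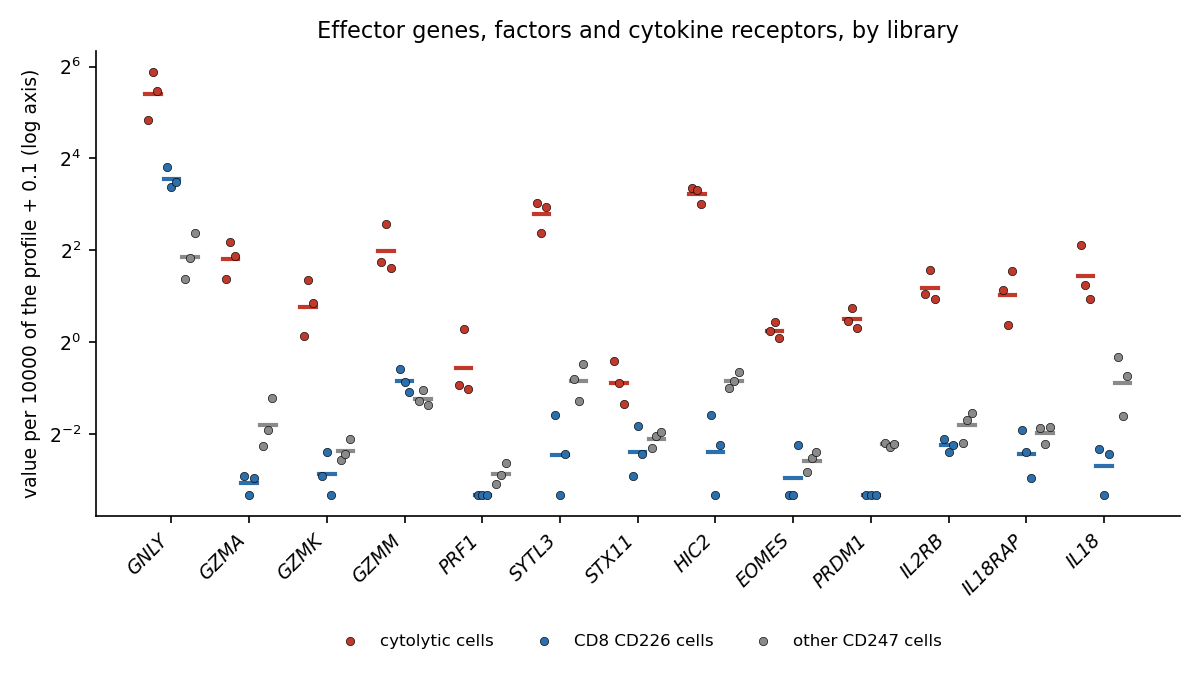
Levels of 13 genes in cytolytic (red), CD8 CD226 (blue) and other CD247 cells (grey), per 10000 plus 0.1 on a log axis. Each point is 1 of 3 libraries, and bars mark the means of the log values. The cytolytic libraries lie above the CD8 CD226 libraries for all 13 genes, as in 10.0% of all tested genes. GNLY is the only one of the 13 with CD8 CD226 levels above 10.

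Effector transcription factors followed with 9 of 20 tested genes higher, 3 lower and a median change of 0.96. The shares over all tested genes were 4.71% higher and 7.38% lower. HIC2, a BTB zinc-finger repressor (chromosome 15, 254574 to 329976), had levels of 10.2, 9.78 and 7.98 in cytolytic cells and 0.233, 0 and 0.114 in CD8 CD226 cells, a change of 5.61 ± 0.33 (limma adjusted p = 5.12e-11). Cytolytic libraries differed little among themselves in this gene. EOMES, a T-box factor of killer cells, was at 1.08, 1.25 and 0.967 against 0, 0 and 0.114, a change of 3.21 ± 0.39 (limma adjusted p = 2.38e-06). PRDM1, which encodes Blimp-1, a driver of terminal effector states in mammals, was at 1.27, 1.57 and 1.15 and at 0 in all CD8 CD226 libraries, at least 33.7-fold higher (limma adjusted p = 6.46e-08). These factors were thus close to absent from the CD8 CD226 profiles.

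Smaller increases were seen for factors that both groups used. IKZF3, Aiolos of the Ikaros family, rose by 1.66 ± 0.22 (limma adjusted p = 6.98e-06), with levels of 4.42 to 5.21 against 1.30 to 1.63. TOX, an HMG-box factor of T and natural killer cell development, was at 31.9, 34.3 and 25.1 against 17.4, 15.2 and 16.3, a change of 0.89 (limma adjusted p = 0.00077). RORA, an orphan nuclear receptor, was higher by 1.15 than in CD8 CD226 cells (limma adjusted p = 0.00169, and 0.125 without library 3) and yet below other CD247 cells (change -1.0, limma adjusted p = 0.00138). BHLHE40 and BATF were higher by 1.66 and 1.10, and both calls were lost without library 3 (adjusted p = 0.0866 and 0.418), that of BATF also without library 2 (0.116). TBX21, which encodes T-bet and pairs with EOMES in mammals, did not pass the test (levels of 0.251 to 0.462 against 0.171 to 0.299, change 0.61, limma adjusted p = 0.340), nor did RUNX3 (change 0.31).

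RUNX1, STAT4 and NR4A2 were the 3 lower members. RUNX1, a factor of T-cell development, was at 11.3, 16.6 and 9.50 in cytolytic and 31.6, 38.3 and 31.2 in CD8 CD226 cells, a change of -1.46 ± 0.19 (limma adjusted p = 8.81e-06). STAT4, which relays interleukin-12 signals, was at 1.27, 1.44 and 0.869 against 3.89, 3.36 and 4.45 (change -1.65, limma adjusted p = 2.93e-05). NR4A2, an early response gene of the receptor, was lower by 1.47 with levels of 1.46, 0.188 and 0.888 against 2.23, 1.99 and 1.83 (limma adjusted p = 0.0160), and its change was -0.77 without library 2 (adjusted p = 0.0935), with an adjusted p of 0.155 without library 3. When library 3 was left out, 5 genes of the list remained higher and 2 lower.

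Cytokine receptors and their signalling genes moved in both directions, with 8 of 27 tested genes higher, 7 lower and a median change of 0.07. The shares over all tested genes were 4.71% higher and 7.38% lower. IL2RB, the beta chain shared by the receptors of interleukin-2 and interleukin-15, was at 1.96, 2.88 and 1.84 in cytolytic cells and 0.133, 0.0907 and 0.114 in CD8 CD226 cells, a change of 3.43 ± 0.31 (limma adjusted p = 3.25e-08). Its partner IL2RG, the common gamma chain, fell by 0.72 with a limma adjusted p of 0.0445, which the block on the hen (0.0544), the median of ratios (0.156) and each left-out library (0.150, 0.0794 and 0.309) took above 0.05. Both chains belong to the same receptor complex. IL7R, the interleukin-7 receptor that naive T cells need to survive (chromosome Z, 11442771 to 11458044), was at 0.192, 0.941 and 0.671 against 14.6, 9.88 and 13.0, 20.8-fold lower in cytolytic cells (change -4.34 ± 0.32, limma adjusted p = 2.00e-09, and a change of -3.68 without library 1).

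The receptor of interleukin-18 rose in both chains. IL18RAP, its accessory chain, was at 2.12, 1.19 and 2.84 against 0.166, 0.0907 and 0.0285 (change 3.45 ± 0.36, limma adjusted p = 3.61e-07), and IL18R1, the ligand-binding chain, at 1.39, 2.32 and 2.23 against 0.399, 0.544 and 0.627 (change 1.72, limma adjusted p = 0.000128). The cytokine itself was among the 12 largest increases, since IL18 had levels of 4.23, 2.26 and 1.84 in cytolytic cells and 0.0997, 0 and 0.0856 in CD8 CD226 cells (change 4.13 ± 0.36, limma adjusted p = 2.29e-08). Ligand and receptor were thus both higher in the same profiles. Other receptors that rose were IL21R by 1.86, IL6ST by 1.51 and IL12RB2 with a ratio of 9.88-fold (95% counting interval 3.12 to 50.1), of which IL21R was not past the threshold without library 1 (adjusted p = 0.10) and IL12RB2 not without library 2 (0.0957) or library 3 (0.186). CISH, a feedback inhibitor induced by STAT5, was at 0.577, 0.627 and 0.888 against 0.133, 0 and 0.114 (change 2.20, limma adjusted p = 0.000404).

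Interferon receptors were lower. IFNAR1, of the type I receptor, was at 0.616, 0.564 and 0.395 against 1.26, 0.907 and 1.37 (change -1.03, limma adjusted p = 0.0202), a call lost under the median of ratios (0.0604) and without library 1 (0.110) or library 3 (0.357). IFNGR1, a chain of the interferon-gamma receptor, was at 3.19, 2.07 and 1.93 in cytolytic and 6.88, 6.98 and 7.13 in CD8 CD226 cells (change -1.54, limma adjusted p = 1.80e-05). In other CD247 cells IFNGR1 was at 2.29, 2.04 and 2.67, close to the cytolytic level, and CD8 CD226 cells exceeded these by 1.55 (limma adjusted p = 0.000183). SMAD7, an inhibitor of TGF-beta signalling, fell by 2.64 and SMAD3, which transmits that signal, rose by 1.72 (limma adjusted p = 2.42e-05 and 0.00557), the second call being lost without library 3 (adjusted p = 0.0758).

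Of the factors and receptors of naive and memory T cells, 12 of 22 tested genes were lower and 2 higher, with a median change of -1.04. Over all tested genes 7.38% were lower and 4.71% higher. TCF7, the factor that maintains resting and memory T cells (chromosome 13, 15521910 to 15580445), had levels of 0.346, 1.19 and 0.869 in the cytolytic cells of libraries 1 to 3 and 38.4, 34.4 and 34.5 in CD8 CD226 cells. It was 44.6-fold lower (change -5.44 ± 0.27, limma adjusted p = 3.70e-12). LEF1, its relative, was at 1.77, 0.753 and 0.928 against 5.88, 5.89 and 6.96 (change -2.42, limma adjusted p = 4.23e-07). SATB1, a chromatin organiser of T cells, was at 2.08, 3.95 and 4.4 against 32.1, 34.6 and 38.2 (change -3.36 ± 0.22, limma adjusted p = 2.75e-10). None of these genes overlapped between the groups, and all cytolytic libraries lay below in 18.2% of all tested genes.

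PDE3B, a phosphodiesterase that breaks down cyclic AMP, was the gene with the smallest adjusted p among the members named. This enzyme was not confined to T cells. After the thinning described below it was seen in 87.4 to 91.5% of other CD247 cells and 71.7 to 80.0% of B-lineage cells. Its levels were 1.73, 1.88 and 1.84 in cytolytic and 58.2, 52.9 and 54.2 in CD8 CD226 cells, 30.3-fold lower, and the spread over libraries was narrow in both groups (change -4.85 ± 0.17, limma adjusted p = 7.27e-15). CALCA, the calcitonin gene, was lower too, at 0.0385 to 0.502 against 9.16 to 16.5 (change -5.39, and -4.63 without library 1). The annotated spans of PDE3B (chromosome 5, 10106164 to 10182652) and CALCA overlap, so the CALCA value is uncertain. FOXO1, which drives IL7R and CCR7 in resting mammalian T cells, was at 3.69, 6.02 and 3.47 against 18.9, 22.2 and 17.5 (change -2.16, limma adjusted p = 9.10e-08). CCR7, the receptor for entry into lymphoid tissue, was low throughout with 0, 0.0627 and 0.0197 against 0.498, 0.816 and 0.970, and CD8 CD226 cells were higher by a ratio of 35.2-fold (95% counting interval 9.32 to 298, limma adjusted p = 2.38e-05).

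FOXP1 and IKZF1 were lower too (changes -0.99 and -1.08) and had levels of 22.4 to 26.0 and 9.16 to 9.85 in cytolytic cells. BCL11B, which sets T-cell identity, did not pass the test (change -0.48, limma adjusted p = 0.0830) but did with the hen as a block (adjusted p = 0.0264) and without library 2 (0.0284). ETS1, GATA3 and CD44 did not pass either, nor did KLF2 (change 0.73, limma adjusted p = 0.0914), which passed under the median of ratios (change 0.90, adjusted p = 0.0315). The higher members were KLF7 by 1.69 (limma adjusted p = 0.000726, and 0.0679 without library 3) and TOX2 by 1.55 ± 0.22 (limma adjusted p = 2.73e-05). Without library 1 or library 3, 11 genes of this list were lower, and 12 were lower among cells with at most 10% mitochondrial values.

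**Figure D3:**
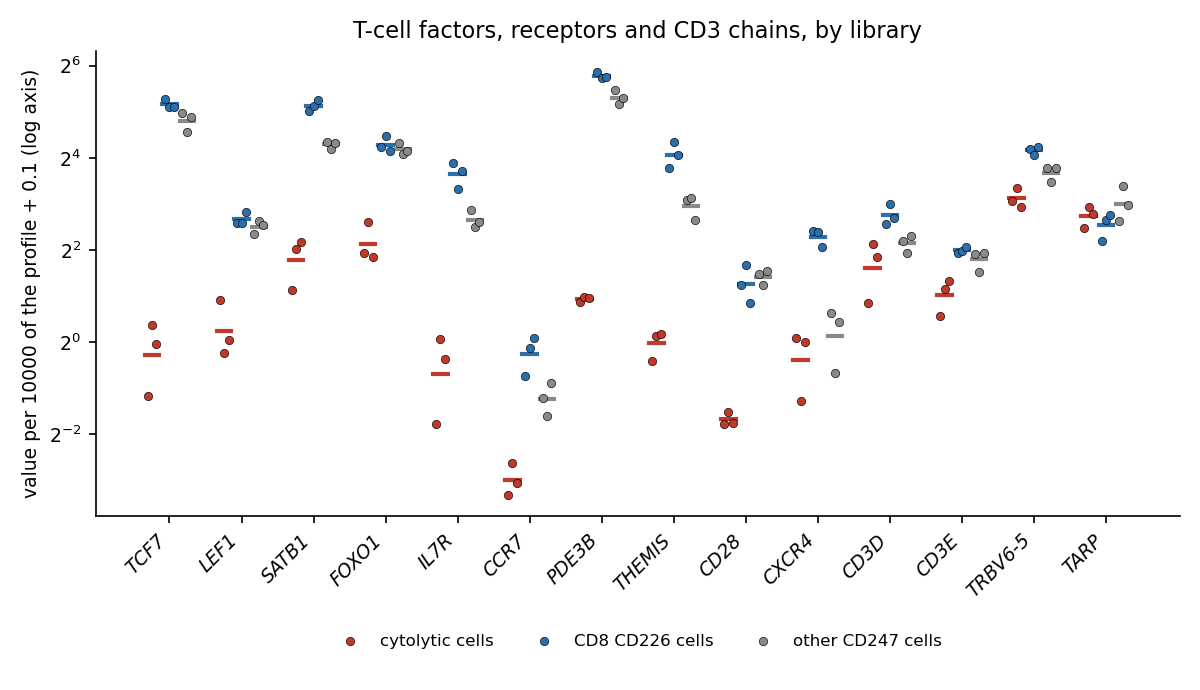
Levels of 14 genes in cytolytic (red), CD8 CD226 (blue) and other CD247 cells (grey), per 10000 plus 0.1 on a log axis. Each point is 1 of 3 libraries, and bars mark the means of the log values. For TCF7, PDE3B, IL7R and THEMIS the cytolytic libraries lie far below both other groups, whereas the 3 groups overlap for TARP.

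T-cell receptor and CD3 chains were lower on balance, with 3 of 4 tested genes down, 0 up and a median change of -1.01. Over all tested genes 7.38% were lower and 4.71% higher. CD3D, a chain of the CD3 complex, was at 1.69, 4.26 and 3.51 in cytolytic cells and 5.81, 7.89 and 6.33 in CD8 CD226 cells (change -1.14 ± 0.26, limma adjusted p = 0.00384). CD3E, a second chain, was at 1.39, 2.13 and 2.41 against 3.72, 3.81 and 4.08 (change -0.97 ± 0.23, limma adjusted p = 0.00569). TRBV6-5, the annotated beta chain gene, was at 8.31, 10.0 and 7.56 against 18.1, 16.7 and 18.8 (change -1.05 ± 0.18, limma adjusted p = 0.000176). The means were 2.11-fold, 1.96-fold and 2.07-fold lower, and all cytolytic libraries lay below all CD8 CD226 libraries, as in 18.2% of all tested genes.

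The CD3 calls depended on the cells taken. When cytolytic cells were also required to hold CD8A or CD8BP and no CD4, which left 138 cells, CD3D and CD3E had changes of -0.73 and -0.69 and did not pass the threshold (limma adjusted p = 0.115 and 0.134). TRBV6-5 still passed, with a change of -1.21 (limma adjusted p = 0.00057). The condition on FASLG was kept in this check. In the study FASLG was high in a cytolytic subcluster with low CD3D and CD3E. The part of the FASLG condition in the CD3 calls was not tested. Leaving out library 1 gave adjusted p-values of 0.0536 for CD3D and 0.102 for CD3E, and leaving out library 3 gave 0.0853, 0.0793 and, for TRBV6-5, 0.0591. Among cells with at most 10% mitochondrial values they were 0.0865 and 0.0794. TARP, the annotated gamma chain gene, was at 5.43, 7.59 and 6.81 against 4.48, 6.17 and 6.62 and did not pass the test (change 0.20 ± 0.21, limma adjusted p = 0.599).

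Of 7 tested markers of gamma-delta T cells, 1 was lower and 0 higher in cytolytic cells, where 12.1% of all tested genes were called in either direction. MAF was at 0 to 0.376 in cytolytic, 0.0570 to 0.272 in CD8 CD226 and 5.62 to 7.46 in other CD247 cells. SOX13 was at 0.0385 to 0.125, 0.0570 to 0.133 and 2.87 to 4.71, and GATA3 at 1.16 to 1.76, 0.997 to 1.36 and 6.33 to 7.58. PTPN14 was at 0.0627 to 0.0987, 0.181 to 0.599 and 2.92 to 5.09, lower in cytolytic than in CD8 CD226 cells (limma adjusted p = 0.0166), a call lost without library 1 (0.211) and library 3 (0.257). All libraries of both groups thus lay below those of other CD247 cells in these 4 markers, whereas TARP overlapped. In the study, high MAF, SOX13 and GATA3 marked its main group of gamma-delta clusters. They were not evident in its remaining gamma-delta cells, among them a cytolytic subcluster. The levels of these genes therefore cannot tell whether gamma-delta cells were among the cytolytic cells. After the thinning described below, TARP was seen in 42.6 to 50.7% of cytolytic and 31.7 to 44.2% of CD8 CD226 cells. Other CD247 cells gave 33.7 to 51.5% and B-lineage cells 0.917 to 1.44%. TRBV6-5 and TARP were seen together in 24.1 to 34.4% of cytolytic and 25.2 to 39.5% of CD8 CD226 cells. LOC121110951, KK34 and INPP5A, also on the list, are not described here.

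Genes of T-cell receptor signalling, surface receptors such as CD28 among them, split into 7 higher and 8 lower of 28 tested. The shares of all tested genes were 4.71% and 7.38%. The median change of the list was -0.09, which became 0.05 under the median of ratios. Without library 1 there were 5 higher and 6 lower of 28. Without library 2 there were 4 and 7 of 29, and without library 3 there were 3 and 4 of 29. THEMIS, a thymic selection protein that T cells keep, was at 0.654, 1.00 and 1.03 in cytolytic and 13.6, 20.3 and 16.5 in CD8 CD226 cells (change -4.09 ± 0.22, limma adjusted p = 1.54e-11). CD28, the main costimulatory receptor, was at 0.192, 0.251 and 0.197 against 2.26, 3.08 and 1.71 (change -2.93, limma adjusted p = 1.85e-07). TRAT1 and UBASH3A were lower as well (changes -1.42 and -0.96), and the call of UBASH3A was lost without cells that held TARP (change -0.76, adjusted p = 0.101).

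Among the higher ones, PRKCH, the eta form of protein kinase C, was at 39.6, 31.8 and 29.4 against 10.0, 10.1 and 10.8 (change 1.68 ± 0.17, limma adjusted p = 2.22e-07), and other CD247 cells, at 3.73, 2.64 and 3.86, lay below CD8 CD226 cells by 1.59 (limma adjusted p = 0.000358). FYN, a Src family kinase, was at 24.1, 23.0 and 20.0 against 9.50, 9.43 and 9.33 (change 1.24, limma adjusted p = 1.31e-05). SH2D1A, the SAP adaptor of SLAM family receptors, was at 23.8, 11.2 and 14.8 against 3.32, 3.54 and 3.76 (change 2.13, limma adjusted p = 3.76e-07). One of its receptors, CD244, was at 1.19 to 1.48 against 0.199 to 0.342 (change 1.98, limma adjusted p = 4.84e-05), whereas SLAMF1 fell by 2.14 (limma adjusted p = 0.000475, and 0.0525 without library 3). CD244 and SLAMF1 were the only ones of 7 tested killer-cell receptors and adaptors past the threshold, where 12.1% of all tested genes were past it. LCK, ZAP70, LCP2, PLCG1 and PTPRC, which both groups use, did not pass the test, with changes of -0.23, -0.09, -0.17, 0.32 and -0.08.

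Adhesion and migration genes were divided in the same manner, with 7 of 21 higher, 6 lower and a median change of 0.49. Over all tested genes 4.71% were higher and 7.38% lower. CX3CR1, the fractalkine receptor of circulating killer cells, was at 0.50, 0.941 and 1.03 in cytolytic and 0, 0.0907 and 0.0570 in CD8 CD226 cells, a ratio of 21.9-fold (95% counting interval 7.24 to 109, limma adjusted p = 4.87e-05). ADGRG1, an adhesion receptor found on cytotoxic lymphocytes in humans, was at 0.731, 1.51 and 0.731 against 0, 0 and 0.0285, a ratio of 65.8-fold (95% counting interval 11.5 to 2633, limma adjusted p = 2.54e-06). The chemokine genes CCL5 and LOC395551, a CCL4 gene by its synonyms, were higher, CCL5 with a ratio of 64.2-fold (95% counting interval 11.2 to 2568) and LOC395551 with a change of 3.25, with LOC395551 at 2.69, 0.502 and 3.36, lowest in library 2, without which its change was 4.04. The integrin beta chains ITGB2 and ITGB1 rose by 1.98 and 1.36, whereas the alpha chains ITGA1, ITGA4 and ITGA6 fell (changes -2.57, -1.19 and -2.89).

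CXCR4, which retains cells in bone marrow and lymphoid tissue, was at 0.962, 0.314 and 0.908 in cytolytic cells and 5.25, 5.17 and 4.05 in CD8 CD226 cells (change -2.68 ± 0.30, limma adjusted p = 8.00e-07). Other CD247 cells held 1.46, 0.527 and 1.25, so CD8 CD226 cells were the high group for this gene, above those by 2.16 (limma adjusted p = 0.00271). Cytolytic cells did not pass the test against other CD247 cells for CXCR4 (change -0.52, limma adjusted p = 0.455). S1PR1, which guides exit from lymphoid tissue, did not pass the test between the 2 groups (change -0.47, limma adjusted p = 0.479) but did without library 2 (change -1.11, adjusted p = 0.0433).

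Of the checkpoint and costimulatory receptors, 1 of 14 was higher and 2 were lower, with a median change of 0.15. Over all tested genes 4.71% were higher and 7.38% lower, so no change of this list as a whole is read from its counts. BTLA, an inhibitory receptor, was lower by 1.62 (limma adjusted p = 0.00135, and 0.127 without library 3), and HAVCR1 was higher with a ratio of 9.05-fold (95% counting interval 2.23 to 79.4, limma adjusted p = 0.0273), which was lost without library 1 (0.200) or library 3 (0.156). PDCD1 and LAG3 were at 0 to 0.138 and 0.0385 to 0.197 in cytolytic cells and at 0 and 0 to 0.0285 in CD8 CD226 cells, and neither passed the test. Of 14 tested proliferation genes 4 were higher and 0 lower, beside the same shares of all genes. MKI67, a marker of cycling cells, was at 0.269, 1.07 and 0.474 against 0.0332, 0 and 0.0570, a ratio of 13.2-fold (95% counting interval 4.24 to 66.1, limma adjusted p = 0.000686). Among cells with at most 10% mitochondrial values, 0 of 9 tested proliferation genes were higher and 1 was lower, and MKI67 had a limma adjusted p of 0.171. At a limit of 20%, 1 of 13 was higher. The 10% limit left 35, 38 and 64 cytolytic cells in libraries 1 to 3, and 94, 38 and 98 CD8 CD226 cells. Mitochondrial share and the loss of cells therefore cannot be told apart here. Without cells that held TARP, 0 of 16 were higher or lower, and the change of MKI67 was 1.44 (adjusted p = 0.218) in place of 2.29, while it was 1.67 without library 2. TOP2A lost its call without library 2 or library 3 (adjusted p = 0.0939 and 0.179) and HMGB2 without each library in turn (0.111, 0.116 and 0.207), and without libraries 1, 2 or 3 there were 2, 2 or 1 higher.

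**Figure D4:**
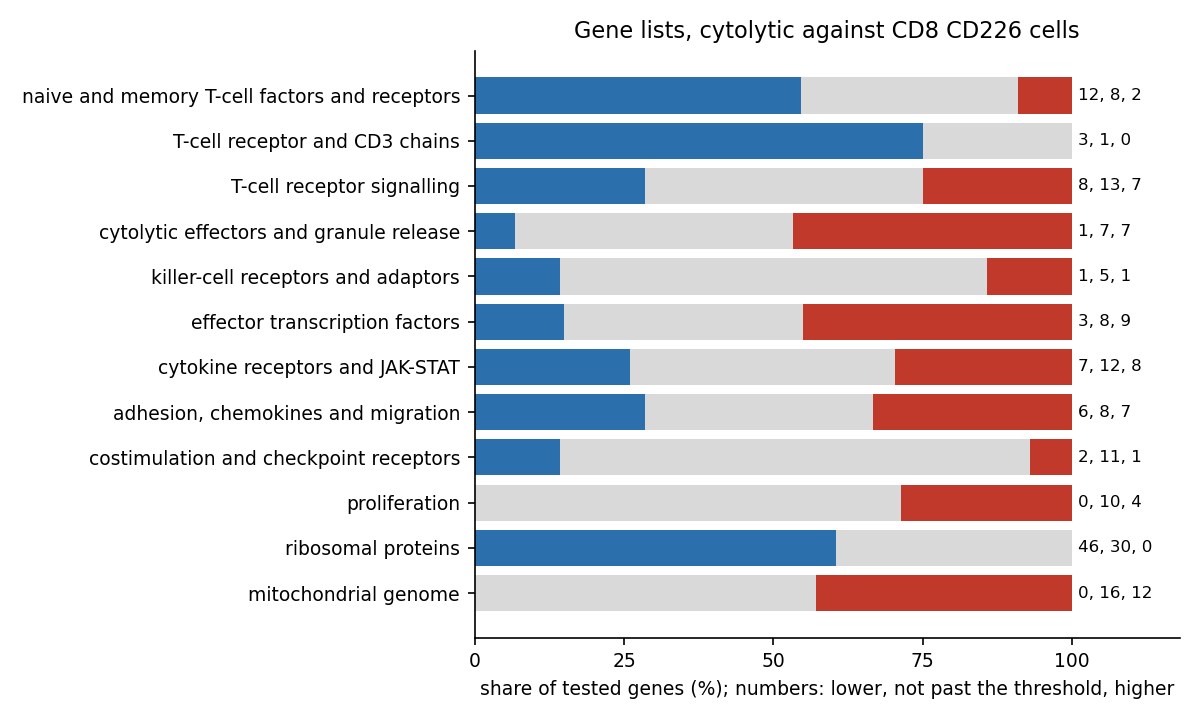
Share of the tested genes of 12 lists that were lower (blue), not past the threshold (grey) or higher (red) in cytolytic than in CD8 CD226 cells, with the counts in that order at the right. The naive and memory list has 12 of 22 lower, the effector list 7 of 15 higher, 46 of 76 ribosomal protein genes are lower and 12 of 28 mitochondrial genes higher. Over all tested genes 4.71% are higher and 7.38% lower.

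The 12 largest increases held several genes outside these lists. GAB3, a docking adaptor of cytokine receptor signalling (chromosome 4, 14210545 to 14265444), had the largest change of all, with levels of 13.7, 6.4 and 13.1 in cytolytic and 0.0997, 0 and 0.228 in CD8 CD226 cells (change 5.82 ± 0.36, limma adjusted p = 8.81e-11). BCR, best known from the BCR-ABL fusion in humans, was at 10.2, 9.78 and 9.48 against 0.631, 0.544 and 0.342, 19.4-fold higher (change 4.06 ± 0.23). BCL2A1, a survival protein of the BCL2 family, was at 1.77, 2.82 and 2.55 and at 0 in all CD8 CD226 libraries, at least 60.4-fold higher. MYO1D, an unconventional myosin, SNX24, a sorting nexin, SPATA13, a Rac exchange factor, and DEPTOR, an inhibitor of mTOR, changed by 4.61, 4.82, 4.29 and 4.01, where the summed values of MYO1D, SPATA13 and DEPTOR in CD8 CD226 cells were only 3, 2 and 3 and the fitted size depends on the added 0.1. LOC112532525, an annotated RNA without a gene name, changed by 5.17, and by 5.99 without library 1, as SNX24 did by 5.66 without library 3. With GZMA, HIC2, SYTL3 and IL18 described above, these make up the 12. For each the 3 cytolytic libraries lay above the 3 CD8 CD226 libraries, which their choice by size and by direction in all 3 libraries favoured.

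Largest among the decreases was IL20RA, a receptor chain for interleukin-20 cytokines (chromosome 3, 54554208 to 54574952), with levels of 0, 0.376 and 0.158 in cytolytic and 9.87, 9.88 and 10.3 in CD8 CD226 cells, 56.3-fold lower (change -5.46 ± 0.37, limma adjusted p = 3.25e-10, and a change of -4.86 without library 1). NRP1, a coreceptor of semaphorins, was at 0, 0.0627 and 0.0197 against 3.62, 3.90 and 3.91, with a summed value of 2 in all cytolytic cells, and CD8 CD226 cells were higher by a ratio of 176-fold (95% counting interval 48.2 to 1457). NDST4, which sulfates heparan chains, was at 0.115, 0.314 and 0.0987 against 12.5, 9.97 and 8.78 (change -5.32 ± 0.28). ZNF521, a zinc-finger factor, and SIPA1L1, a regulator of Rap, changed by -4.73 and -4.90. CLGN, a chaperone, UGT8, a glycolipid enzyme, and MGAT4D, of a glycosyltransferase family, each had a summed value of 1 in all cytolytic cells, against levels of 2.88 to 3.29, 2.18 to 2.85 and 1.76 to 2.90 in CD8 CD226 cells, and their fitted changes of -4.88, -4.52 and -4.50 depend on the added 0.1. CLGN (chromosome 4, 29216246 to 29234358) and MGAT4D (chromosome 4, 29238168 to 29268560) lie close together.

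Both groups were set beside the 5883 other cells with CD247 in the same libraries to see which of them departs from the rest. Outside the gates, 1779 of 9766 genes (18.2%) differed between cytolytic and other CD247 cells, 551 (5.64%) higher and 1228 (12.6%) lower in cytolytic cells. Between CD8 CD226 and other CD247 cells 519 of 9814 (5.29%) differed, 166 (1.69%) higher and 353 (3.60%) lower in CD8 CD226 cells. These comparisons share cells with the main one, so their counts are not compared further. TCF7 in other CD247 cells was at 23.4 to 31.3, PDE3B at 35.8 to 44.0 and IL7R at 5.57 to 7.22, and cytolytic cells lay below these (changes -5.08, -4.37 and -3.36). For CD8 CD226 cells, TCF7 did not pass the test against other CD247 cells (limma adjusted p = 0.203), while IL7R was higher by 0.98 (limma adjusted p = 0.00903) and THEMIS by 1.11 (limma adjusted p = 0.00672). GNLY stood at 2.50, 3.48 and 5.08 in other CD247 cells, below CD8 CD226 cells by 1.69 (limma adjusted p = 0.00249) and below cytolytic cells by 3.53 (limma adjusted p = 5.97e-05). The summed levels of GNLY were therefore in the order cytolytic, CD8 CD226 and other CD247 cells. Other CD247 cells are a mixture of cells outside both gates. They had CD247 of at least 1, MMR1L4 at 0 and PAX5 and EBF1 together below 3. The share of cells with GNLY also differed between the groups (74.4, 48.2 and 9.88% after the thinning described below), so a summed level is not the level of a typical cell.

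Cells of a group varied among themselves. B-lineage cells served as a reference, with PAX5 and EBF1 together at 3 or more and CD247 at 0. The limit on CD247 may lower other T-cell transcripts in them, which was not tested. After each cell was thinned to a total of 1500, GNLY was seen in 65.7 to 82.8% of cytolytic cells per library, 46.7 to 51.2% of CD8 CD226 cells, 7.15 to 13.7% of other CD247 cells and 1.28 to 6.04% of B-lineage cells, which should lack it (median total 2421.5). Without thinning, cytolytic cells gave 71.3 to 90.6% and CD8 CD226 cells 56.1 to 58.1%. GZMA was seen in 25 to 32.8% and 0 to 0.813%, HIC2 in 57.1 to 62.5% and 0 to 0.813%, and PRF1 in 6.48 to 14.1% and 0% of cytolytic and CD8 CD226 cells. TCF7 was seen in 4.63 to 10.9% and 97.7 to 99.2%, and IL7R in 3.70 to 10.9% and 69.8 to 78.1%. CD3D or CD3E was seen in 28.7 to 48.3% of cytolytic and 59.9 to 69.8% of CD8 CD226 cells, with 11.2 to 13.4% in B-lineage cells. TRBV6-5 was seen in 54.6 to 73.4% and 80.3 to 84.6%, but also in 34.1 to 42.2% of B-lineage cells. The source of the TRBV6-5 signal in B-lineage cells was not tested. None of CD3D, CD3E, TRBV6-5 and TARP was seen in 10.9 to 18.5% of cytolytic and 4.65 to 6.50% of CD8 CD226 cells. Only 50.5 to 58.2% of B-lineage cells had none of these genes. Over all libraries the cytolytic share was 13.6% with thinning and 6.67% without it. These shares therefore cannot be read as those of cells without receptor chains or of natural killer cells. Intervals per library (Clopper-Pearson, 95%) cover counting error only, such as 56.0 to 74.6% for the 65.7% of cytolytic cells of library 1 with GNLY.

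Within the cytolytic cells, the 206 cells in which CD3D or CD3E was seen were set beside the 169 in which neither was, as a description without a test. GNLY was at 47.6, 89.6 and 58.5 in the former and 15.8, 17.5 and 18.8 in the latter, and GZMA at 3.28, 6.99 and 4.68 against 1.99, 1.03 and 1.54, so both were higher with CD3 in all 3 libraries. GZMK was at 1.35, 3.17 and 2.18 against 0.769, 1.47 and 0.827. HIC2 did not follow, with 11.5, 8.96 and 7.38 against 9.35, 10.9 and 9.04, and neither did EOMES (0.771, 1.53 and 1.02 against 1.28, 0.884 and 0.882) or TOX (31.8, 35.0 and 24.2 against 32.0, 33.4 and 26.8). TCF7 was low on both sides, at 0.289, 0.765 and 0.954 against 0.384, 1.77 and 0.716. The median share of ribosomal protein values moved with the split, at 1.30, 2.15 and 1.21% against 0.630, 0.872 and 0.742%, as did the median total per cell, at 2535.5, 2581 and 2624 against 2341, 2552 and 2447, and their part in the difference was not tested. In CD8 CD226 cells split the same way, GNLY was at 17.3, 12.2 and 13.3 against 3.14, 4.17 and 4.82.

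**Figure D5:**
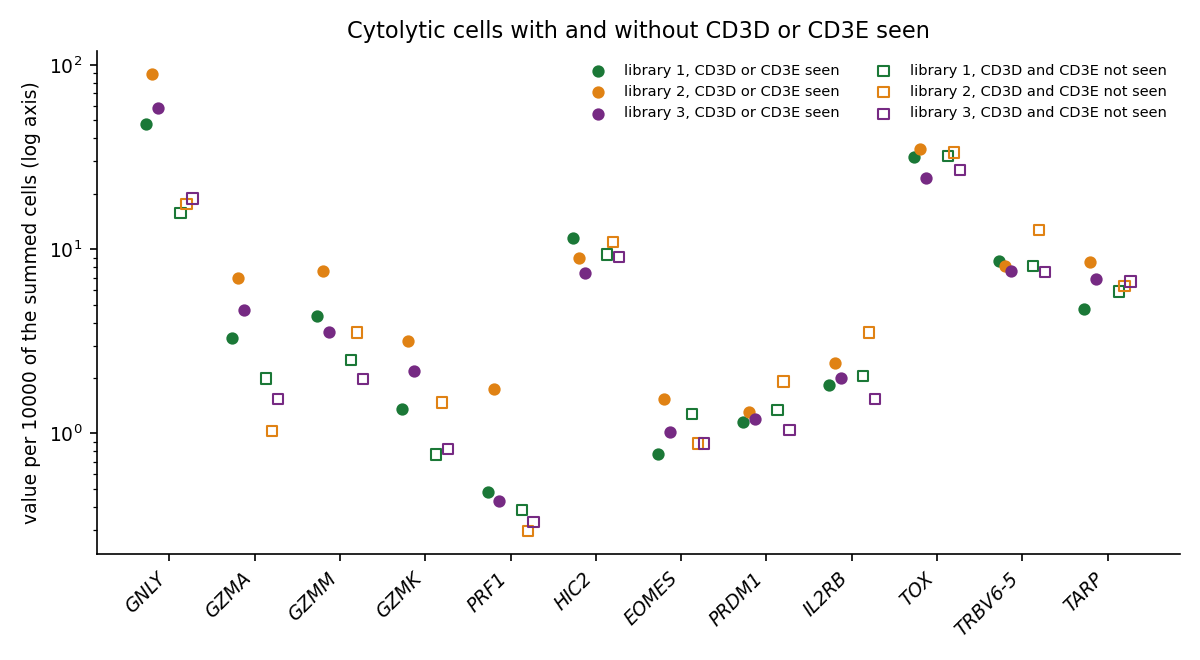
Levels per 10000 (log axis) of 12 genes in cytolytic cells in which CD3D or CD3E was seen (filled circles, 206 cells) or not seen (open squares, 169 cells), with 1 point per library and colours for libraries. GNLY, GZMA and GZMK are higher with CD3 seen in all 3 libraries, whereas HIC2, EOMES and TOX overlap.

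Part of the cytolytic cells also met single conditions of the other gate. Of the cytolytic cells, 138 held CD8A or CD8BP without CD4, 44 had a CD226 value of at least 3, and 19 had both CD226 and CD8. With the cytolytic side restricted to the 138 CD8 cells, 818 genes were called and 757 of them were among the 1194 with the same direction, and GNLY, GZMA, HIC2, TCF7, PDE3B and IL7R changed by 2.35, 5.39, 5.58, -6.61, -5.30 and -4.96. Without cells that held TARP, 795 genes were called, and the changes were 2.04, 4.58, 5.81, -5.11, -4.86 and -4.24. At the edge of the cytolytic gate, the 31 cells with a ZEB2 value of 2 had levels of 35.2 for GNLY and 5.5 for PDE3B, the 32 cells at 3 had 40.7 and 5.14, and the 343 cells at 4 or more had 42.5 and 1.5. At the edge of the other gate, the 36 cells with a CD226 value of 2 had 11.7 for GNLY and 36.6 for TCF7, the 33 at 3 had 5.57 and 35.7, and the 270 at 4 or more had 12.9 and 36.1.

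Genes of the ribosome and of the mitochondrial genome moved with the groups. Of 76 tested ribosomal protein genes 46 were lower and 0 higher in cytolytic cells (median change -0.92), with a summed level of 135 to 274 against 290.2 to 438. Of 28 tested mitochondrial genes 12 were higher and 0 lower (median change 0.70), with 967 to 1341 against 548 to 830.1. Their part in the other changes was measured only in so far as cells were removed or totals changed. Without both kinds of genes in the total, 1124 genes were called and 1092 of them were shared, and among cells with at most 10% mitochondrial values GNLY, GZMA, HIC2, TCF7, PDE3B and IL7R changed by 1.90, 5.06, 5.88, -5.30, -5.60 and -4.21.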

How the data were processed

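The authors sequenced single cells with 10x Genomics chemistry and counted against GRCg7b with Cell Ranger. Their methods name Seurat, removal of doublets and SCTransform, and doublets were not called again here. The deposited matrix of 15271 genes is read as scores, whole-number values corrected for depth, which the files do not state. The tests between groups therefore used no count model. The counting intervals, the bounds for genes at 0 and the thinning did treat the values as counts and are approximate to that extent. Barcodes without a prefix were taken as library 1. Library numbers come from barcode prefixes and only tell hens apart. Values were summed per library and group, scaled to 10000, and after adding 0.1 their log2 entered limma 3.58.1 (trend) in R 4.3.3. A gene entered when 1 group averaged 0.05 or more, and p-values were adjusted by Benjamini-Hochberg. The p-values rest on the spread between 3 profiles per group, which holds differences between hens and the sampling of cells. This spread was moderated across genes by limma, and the main fit did not pair the groups by hen. Both groups come from the same hens. Deviations of same-numbered profiles correlated by 0.00, 0.07 and 0.10, and a fit with the hen as a block was an alternative. The gates, gene lists and alternatives were chosen with earlier results of these data known. Genes are named if they are past the threshold and on a list, needed by a sentence on a list, named by the study for these cells, or among the 12 largest changes in each direction in all 3 libraries. Coordinates are those of the RefSeq annotation of GRCg7b, without strand, and the spans of many named genes (TCF7, HIC2, BCR, IL18, CD3E, TARP and TRBV6-5 among them) overlap another annotated gene, so that their values are uncertain to that extent. Regulatory T-cell markers (IL2RA, CTLA4, IL18R1) and eosinophil markers were examined too. Some genes of the lists are counted but not reported by name here. The fit was also run on simulated data with known changes, none of them placed in genes of low mean level. That run therefore does not cover calls on genes of low level.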

Additional observations from a re-analysis of the deposited data

How the results depend on the processing

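The numbers of called genes were within 1.5 times of 1194 (465 higher, 729 lower) under most alternatives, including the fit without library 2 (1101 calls, 411 higher and 690 lower). Exceptions were leaving out library 1 (701 calls, 292 higher and 409 lower) or library 3 (483 calls, 208 higher and 275 lower), and leaving out cells with TARP, which gave 795 calls and 485 lower. A further exception, chosen after seeing the data, was keeping cells with at most 10% mitochondrial values, which gave 768 calls and 455 lower. The cause was not tested. Each of these fits held fewer cells or fewer libraries, and so did the fit without library 2. With the hen as a replicate block, 1239 genes were called, of which 1171 were shared, and among named genes the calls of IL2RG and NFIL3 were lost (adjusted p = 0.0544 and 0.0552). Scaling by the median of ratios gave 589 higher and 570 lower. Taking library 3 from its second entry gave 1194 calls, gates of 4 gave 1126, pseudocounts of 0.5 and 1 gave 1172 and 1135, no filter 1158, a minimum of 0.5 gave 1064, equal weights of cells 1165, and a limit of 20% mitochondrial values 1140. Of 133 named genes past the threshold, 86 passed it under all 18 alternatives and 47 lost it under at least 1. None of the 24 largest changes lost it, but these were chosen for their size in the same data. No named gene past the threshold changed direction under these alternatives. Groups of 43 to 203 cells per library limit what can be seen of genes at levels near 0.1. The alternatives without 4 cells high in CTSG, HDC or IL2RA (3 cytolytic and 1 CD8 CD226) and without mitochondrial and ribosomal genes in the total (1201 and 1124 calls) were also chosen after seeing the data.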

Other observations

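Several enzyme families, chosen after their values were seen and therefore given as description, changed member by member. Over all tested genes 4.71% were higher and 7.38% lower, and the counts below are to be read against these shares. Among diacylglycerol kinases, which end signalling by diacylglycerol, 4 of 8 tested genes were higher in cytolytic cells and 0 lower. DGKH was at 7.66, 6.84 and 7.82 in cytolytic and 0.698, 0.635 and 0.742 in CD8 CD226 cells (change 3.25 ± 0.22, limma adjusted p = 3.12e-10), and DGKI at 1.42, 1.32 and 1.60 against 0, 0 and 0.0570, a ratio of 57.2-fold (95% counting interval 15.5 to 477, limma adjusted p = 8.74e-08). DGKQ and DGKZ rose by 0.86 and 1.00 and lost their calls without library 3 (adjusted p = 0.239 and 0.275), DGKZ also without library 2 (0.120). Of 8 tested phospholipases C, which make diacylglycerol, 2 were higher and 1 lower. PLCG2 was at 2.96, 2.51 and 2.01 against 0.233, 0.181 and 0.114 (change 3.24, limma adjusted p = 4.25e-08), PLCB4 was higher by 3.28, and PLCB2 was lower by 1.89 (limma adjusted p = 0.00126), a call lost without library 1 or library 3 (adjusted p = 0.0551 and 0.126). Of 4 tested Tec family kinases 1 was higher and 2 were lower, and of 6 tested Src family kinases 2 were higher and 0 lower. BTK, known from B cells, was at 0.770, 1.00 and 0.849 against 0.0664, 0 and 0.0856 (change 2.73, limma adjusted p = 1.42e-05) and LYN at 0.808, 0.690 and 0.652 against 0, 0 and 0.114 (change 2.66, limma adjusted p = 4.75e-05), whereas TXK was lower, at 0.269 to 0.395 against 2.54 to 2.91 (change -2.65, limma adjusted p = 1.69e-07). Of 9 tested B-cell markers 1 was higher and 2 were lower in cytolytic cells, namely TCF4 higher by 2.36, a call lost without library 1 or library 3 (adjusted p = 0.0976 and 0.0525), BANK1 lower, with summed values of 3 against 71, and LOC121108878 lower, with 3 against 25 (limma adjusted p = 0.00152, and 0.509 without cells that held TARP).

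Of 3 tested adenylyl cyclases, which make cyclic AMP, 1 was higher and 0 lower, and of 9 tested cyclic nucleotide phosphodiesterases 2 were higher and 3 lower. ADCY7 was at 10.6, 12.2 and 10.5 against 3.06, 3.45 and 3.54 (change 1.70 ± 0.19, limma adjusted p = 6.82e-07), PDE4D and PDE7B were higher by 1.48 and 0.60, and PDE3B, PDE8A and PDE2A were lower (changes -4.85, -1.93 and -1.32). PDE7B lost its call without library 1 or library 3 (adjusted p = 0.310 and 0.173), and PDE2A without each library in turn (0.146, 0.124 and 0.184). Of 7 heparan sulfate sulfotransferases of the NDST and HS6ST families 5 were lower and 0 higher, with HS6ST1 at 0.0385, 0.314 and 0.336 against 3.62, 5.26 and 3.74 and HS6ST3 at 0.154, 0.251 and 0.296 against 2.69, 4.26 and 3.02. NDST1, the weakest of the 5, lost its call without each library in turn (adjusted p = 0.193, 0.235 and 0.0964). Among 4 tested TNF ligands, TNFSF13B, TNFSF4 and TNFSF8 were higher by 2.75, 2.15 and 1.23, and TNFSF11 was lower by 1.24. Without library 3 the calls of TNFSF4, TNFSF8 and TNFSF11 were lost (adjusted p = 0.0562, 0.0566 and 0.162), and without library 1 those of TNFSF8 and TNFSF11 (0.372 and 0.122). The span of TNFSF4 overlaps that of the gate gene FASLG, so its value is not independent of the gate. ITGAD, an integrin alpha chain, was at 4.08, 4.52 and 3.65 against 0.233, 0.0907 and 0.342 (change 3.78, limma adjusted p = 5.56e-09). The regulatory T-cell markers IL2RA and CTLA4 did not pass the test, and of 5 tested eosinophil markers MCTP2 was higher by 2.28 and FRY lower (change -2.83).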
